A study of Mus musculus with 2 samples.

Results

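Sialyltransferases are Golgi enzymes that cap the glycans of glycoproteins and glycolipids with sialic acid, taking it from the donor CMP-sialic acid. The genes examined here were St6gal1 and its relatives St6gal2, St3gal1, St3gal2, St3gal3, St3gal4, St3gal5, St3gal6 and St8sia4, 9 of the 21537 protein-coding mouse genes that could be placed on mm10. St6gal1 was chosen by the signal rank of its strongest MEF2A peak, one of the highest of the series, and the other 8 genes because they belong to its family. The rank of the strongest St6gal1 peak and the number of peaks around it are therefore descriptions, and no test was made on them.

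The data are MEF2A chromatin immunoprecipitation followed by sequencing (ChIP-seq) in CH12.LX, a B cell lymphoma line from a female mouse of the strain B10.H-2aH-4bp/Wts. MEF2A belongs to the MADS-box family of transcription factors, and the element it binds is rich in A and T. There were 2 biological replicates from separate biosamples of this 1 line, with no treatment named and no second condition, so all statements are about 1 group. Irreproducible discovery rate (IDR) analysis selects peaks by how alike lists rank them. Its optimal set held 31497 peaks on mm10, and a separate list held 16839 peaks on mm9. A place in the optimal set does not mean like ranks in both replicates, and some of its peaks ranked far apart in the 2. Each peak has a signal value set by the authors, and a rank of 1 is the strongest peak of its list. The files are peak lists with unknown read depth, they hold no expression values, and the B cell identity of the line was not checked against expression markers. A peak was given to a gene when its summit lay inside the gene or within 50 kb of its outermost transcription start site (TSS) on mm10, or of any of its transcript TSSs on mm9. This gave the family 88 peaks on mm10 and 62 on mm9.

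ST6GAL1 adds sialic acid in alpha2,6 linkage to galactose on N-glycans. This makes the ligand of CD22, an inhibitory receptor of B cells that recognises alpha2,6-linked sialic acid on the same cell and its neighbours. The ST3GAL enzymes use the alpha2,3 linkage on O-glycans, N-glycans or glycolipids, and ST8SIA4 builds chains of polysialic acid.

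DNA under the mm9 peaks that carry the results is shown first, from the mouse genome NCBIM37 (mm9). The strongest peaks of St6gal1 and St3gal6 are shown because they were among the strongest of the whole list, and the second strongest of each because it holds a MEF2 element. The other lines are the only further family peaks with that element near the summit (St8sia4 and St3gal1) and St6gal1 peaks with elements of other factors (ranks 1475 and 4260). Each line covers 60 bp to either side of the summit. Capitals mark a match to the MEF2 consensus, or, in the lines with ranks 9, 1475, 4260 and 15, where no such match was found, matches to other elements named with the results on motifs. CACCTG is the E-box CAGGTG read from the minus strand.
St6gal1, mm9 rank 9, chr16:23301970-23302090, plus strand: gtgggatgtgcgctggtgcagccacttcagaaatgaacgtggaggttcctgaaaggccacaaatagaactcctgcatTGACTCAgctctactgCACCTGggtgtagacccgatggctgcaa
St6gal1, mm9 rank 789, chr16:23284984-23285104, plus strand: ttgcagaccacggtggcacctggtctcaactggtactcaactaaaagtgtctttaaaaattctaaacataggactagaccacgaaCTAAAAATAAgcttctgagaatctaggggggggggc
St6gal1, mm9 rank 1475, chr16:23307600-23307720, plus strand: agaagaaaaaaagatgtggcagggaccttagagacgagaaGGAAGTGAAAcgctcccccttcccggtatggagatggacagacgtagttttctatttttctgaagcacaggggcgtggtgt
St6gal1, mm9 rank 4260, chr16:23274344-23274464, plus strand: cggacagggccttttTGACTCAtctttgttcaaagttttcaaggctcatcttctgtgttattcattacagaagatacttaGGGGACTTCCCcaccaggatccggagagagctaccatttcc
St3gal6, mm9 rank 381, chr16:58502196-58502316, plus strand: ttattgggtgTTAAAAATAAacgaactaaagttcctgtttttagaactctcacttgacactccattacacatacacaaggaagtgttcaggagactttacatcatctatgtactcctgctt
St3gal6, mm9 rank 15, chr16:58498658-58498778, plus strand: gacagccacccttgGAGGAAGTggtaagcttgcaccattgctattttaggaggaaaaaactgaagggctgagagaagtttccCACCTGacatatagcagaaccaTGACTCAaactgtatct
St8sia4, mm9 rank 5613, chr1:97553908-97554028, plus strand: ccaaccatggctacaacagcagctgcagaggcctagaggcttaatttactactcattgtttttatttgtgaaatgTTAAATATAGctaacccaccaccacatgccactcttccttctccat
St3gal1, mm9 rank 10200, chr15:66975252-66975372, plus strand: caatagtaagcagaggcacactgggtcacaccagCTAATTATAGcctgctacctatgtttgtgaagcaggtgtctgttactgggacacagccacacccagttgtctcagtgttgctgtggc

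MEF2A peaks lay at 8 of the 9 genes, and at St6gal1 and St3gal6 they were among the strongest anywhere. Of all protein-coding genes, 68.5% had a peak by the same rule, so the count alone says little about the family. A peak in the strongest 1%, ranked 315 or better, was held by St6gal1 and St3gal6, 2 of the 9 genes, against 1.9% of all protein-coding genes. A peak ranked 1000 or better was held by St6gal1, St3gal6, St8sia4 and St3gal2, 4 of the 9 genes, against 5.39%; both limits were set after the values were seen. The median over the 9 genes was 9 peaks per gene, against 2 over all genes. Per 100 kb searched, the medians were 7.69 peaks in the family and 1.73 over all genes. St6gal2 had no optimal peak. The genes were chosen with these results known, and no test of the family against other genes was made.

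St6gal1 (chromosome 16, 23224729 to 23360350, plus strand, mm10) had 30 peaks, 28 of them inside the gene. Only 8 protein-coding genes had more, and 0.0464% had as many or more. Some of the intervals overlap, and merging those left 28 separate regions. The gene was also long, but its density of 16.2 peaks per 100 kb was reached by only 0.45% of genes. By the rule of likeness used here (a count within 20% of that of St6gal1 and the nearest rank of the strongest peak, over 19 candidate genes), the most similar genes were Rnf157, which encodes a RING finger protein (26 peaks, strongest rank 73), and the cytokine genes Il13 (25 peaks) and Il4 (24 peaks). Il13 and Il4 are neighbours and share the peak of rank 109 that was the strongest of each.

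**Figure D1:**
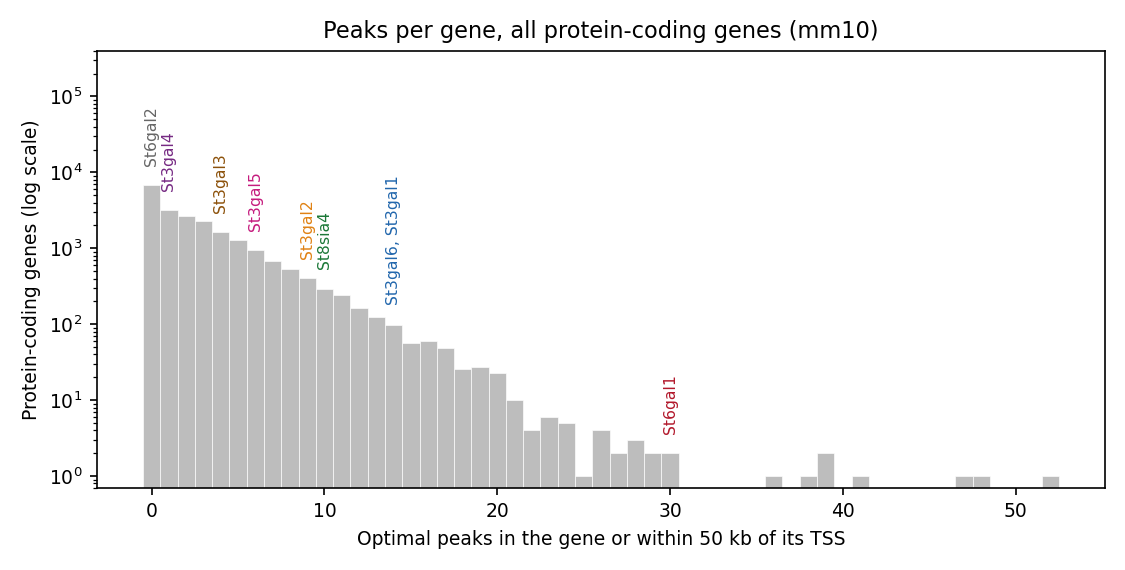
Number of protein-coding genes (vertical axis, log scale) by the number of optimal peaks in the gene or within 50 kb of its outermost TSS (horizontal axis) on mm10. Names mark the 9 sialyltransferase genes: St6gal1 stands at 30 peaks, St3gal6 and St3gal1 at 14, and St6gal2 at 0.

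Among the starts that RefSeq lists, the peaks of St6gal1 gathered around an inner one and not around the first. RefSeq lists 4 starts, of which 3 lie within 1292 bp of each other and the other 65741 bp downstream. Within 25 kb of the inner TSS lay 20 of the 30 peaks, with the strongest of all among them, whereas 5 lay within 25 kb of the outermost TSS, the best of them at rank 12227. Every one of the 8 peaks ranked 5000 or better lay between 47562 and 88105 bp downstream of the outermost TSS. A further 3 lay over 25 kb past the inner TSS.

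The strongest St6gal1 peak (23301807 to 23302091) ranked 10th of 31497 with a signal of 428. Its summit lay 77222 bp downstream of the outermost TSS and 11481 bp downstream of the inner one. It ranked 8th in replicate 1 with a signal of 200 and 18th in replicate 2 with a signal of 230. How signals compare between lists is not given in the sources used here, so the ranks and not the signals are set side by side. By rank, both replicates placed this peak near the top of their lists of 300000 intervals. The strongest peak counts only through the gene body: with summits within 50 kb of the outermost TSS alone, 10 peaks remained and the best ranked 3914.

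The next peaks of St6gal1 lay on either side of the inner TSS. The peak at 23284870 to 23285055, 5500 bp upstream of it, ranked 748 (signal 184), and 330 in replicate 1 (signal 96.4) against 1312 in replicate 2 (signal 90.6). The peak at 23286530 to 23286889, 3760 bp upstream, ranked 1447 (signal 135), with ranks of 1965 in replicate 1 and 1332 in replicate 2. The peak at 23307379 to 23307738, 17089 bp downstream, ranked 1513 (signal 132), with ranks of 1208 and 1636 in replicates 1 and 2. These 3 peaks thus stood within the upper part of both lists, though far below the first one.

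The promoters of St6gal1 carried weak peaks. A summit lay 160 bp downstream of the outermost TSS (rank 19562, signal 29.9), 233 bp downstream of a start in the first cluster (rank 19441, signal 30.0) and 208 bp downstream of the inner TSS (rank 27121, signal 21.5). Of these, only the peak at 160 bp overlapped a peak of the conservative IDR set, a second set from the same analysis. The peak at 160 bp ranked 18947 in replicate 1 and 24796 in replicate 2, and the peak at 208 bp ranked 28044 in replicate 1 and 42732 in replicate 2. Agreement varied among weak peaks of this gene. In the widest case, the peak 10221 bp upstream of the outermost TSS (rank 15384) ranked 83463 in replicate 1 and 7724 in replicate 2, and the one at 233 bp ranked 70560 in replicate 1 and 11402 in replicate 2.

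**Figure D2:**
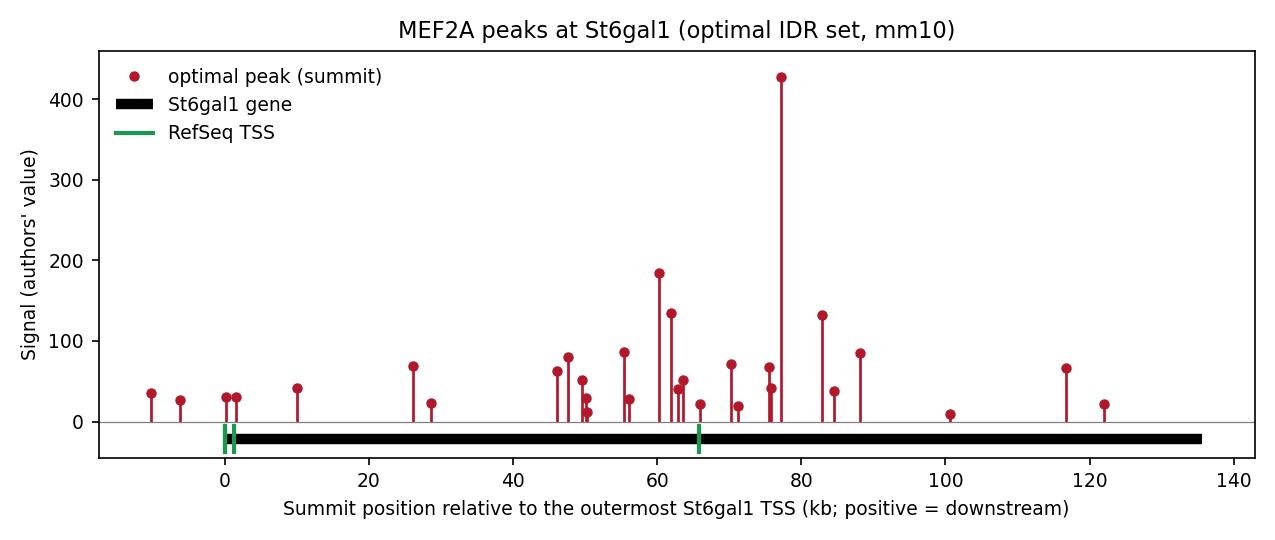
Signal of each optimal peak at St6gal1 (vertical axis, the authors' value) by the position of its summit relative to the outermost TSS (horizontal axis, kb), with the gene as a black bar and the RefSeq starts as green ticks. The peak of signal 428 stands 77222 bp downstream, and 20 of the 30 peaks lie within 25 kb of the inner start.

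The mm9 list, read with GENCODE, placed the strongest St6gal1 peak at nearly the same distance from the inner TSS. St6gal1 had 20 peaks there, and all 20 summits lay in introns of GENCODE protein-coding transcripts. The strongest ranked 9th of 16839 (chromosome 16, 23301857 to 23302190, mm9) and lay 11487 bp downstream of the nearest St6gal1 TSS, against 11481 bp on mm10. The peaks ranked 789 and 1256 lay 5499 and 3761 bp upstream of that same TSS. GENCODE lists 3 starts of St6gal1, and the peaks ranked 4916, 2849 and 4260 lay 1097, 2694 and 4702 bp downstream of another one. Which inner start the peaks lie nearest to thus depends on the annotation. On mm9, 8 of the 9 family genes had a peak, all but St6gal2, against 55.2% of all protein-coding genes.

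ST6GAL2 makes the same alpha2,6 linkage as ST6GAL1, and its gene is known mainly from the brain. St6gal2 (chromosome 17, 55445118 to 55514581, mm10) had no optimal and no mm9 peak. The strongest interval there in the relaxed list of the pooled replicates ranked 26736 of 300000 with a signal of 25.1. The best interval ranked 24193 in replicate 1 and 29961 in replicate 2, and these were different intervals. The conservative IDR set did hold 2 peaks in St6gal2, of signal 25.1 and 23.1, at 14479 and 22615 bp downstream of the TSS. The absence of a call thus rests on the optimal set and the mm9 list.

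Among the genes of the alpha2,3 branch, St3gal6 carried the strongest peaks. ST3GAL6, like ST3GAL4, acts on the terminal galactose of N-acetyllactosamine and contributes to selectin ligands. St3gal6 (chromosome 16, 58469742 to 58524260, minus strand, mm10) had 14 peaks, 11 of them inside the gene, and 1.8% of genes had as many. Its strongest peak (58498444 to 58498749) ranked 28th with a signal of 386, and lay 25669 bp downstream of the outermost TSS. It ranked 36th in replicate 1 (signal 167) and 32nd in replicate 2 (signal 220). A second peak 22120 bp downstream (58502048 to 58502277) ranked 532 (signal 206), with ranks of 407 in replicate 1 and 709 in replicate 2. The remaining 12 peaks of St3gal6 were far weaker, from rank 6446 (signal 60.3) downwards. At its TSS lay a weak peak, 8 bp upstream, of rank 26284, which ranked 17675 in replicate 1 and 84180 in replicate 2. On mm9, St3gal6 had 10 peaks, and the strongest ranked 15th and lay in an intron, 24821 bp downstream of the nearest TSS.

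St3gal4, by contrast, had a single peak. It lay inside the gene, 66531 bp downstream of the only RefSeq TSS (chromosome 9, 35050153 to 35050512, mm10), and ranked 1419 with a signal of 137. Its ranks were 1538 in replicate 1 (signal 49.4) and 1438 in replicate 2 (signal 87.2). On mm9 it was again a single peak (rank 1624) in an intron, 66487 bp from the St3gal4 TSS. The TSS of Kirrel3 was nearer there, at 59404 bp, whereas on mm10 the nearest TSS was that of St3gal4. With the search widened to 100 kb, 8 peaks lay within reach of St3gal4, and whether they also lie within reach of other genes was not examined.

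ST3GAL3 acts on the same kind of glycans, and the density of peaks at its gene was near the median of all genes. St3gal3 (chromosome 4, 117932152 to 118134972, mm10) is 202821 bp long and had 4 peaks, 1.58 per 100 kb, against a median of 1.73 over all genes. That density was reached by 50.6% of genes, and 25.8% had as strong a peak. The strongest (rank 5686, signal 64.9) lay 9530 bp upstream of the TSS inside Kdm4a, which encodes a histone demethylase, and cannot be given to either gene from these data. It ranked 6337 in replicate 1 and 6377 in replicate 2. Another peak lay 143 bp upstream of the TSS (rank 19117).

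ST3GAL1 and ST3GAL2 sialylate the core 1 O-glycan. St3gal2 (chromosome 8, 110919743 to 110974058, mm10) had 9 peaks, of which 8 were in the stronger 50% of the optimal set. Its strongest, 9629 bp downstream of the TSS (110929192 to 110929551), ranked 948 (signal 164), with ranks of 1403 in replicate 1 (signal 51.4) and 815 in replicate 2 (signal 111). That peak was also within 50 kb of the TSS of the neighbouring gene Fcsk. A peak with its summit 4 bp upstream of the TSS ranked 5150 (signal 68.7), with ranks of 3959 in replicate 1 and 7677 in replicate 2. Among the family's peaks within 1 kb of a TSS, it was exceeded in signal only by that of St3gal1, 77 bp upstream of the TSS (rank 4266, signal 76.1).

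St3gal1 (chromosome 15, 67102875 to 67176946, minus strand, mm10) had 14 peaks, 13 of them inside the gene and 10 in the stronger 50% of the set. The strongest, 2843 bp downstream of the TSS (67173923 to 67174282), ranked 1554 (signal 130), with ranks of 1305 in replicate 1 (signal 53.3) and 1647 in replicate 2 (signal 81.5). In replicate 2 another peak stood higher, the one 31406 bp downstream (rank 1748), which ranked 1304 there and 3517 in replicate 1. The mm9 gene model of St3gal1 spans 11486 bp, against 74072 bp for the RefSeq gene on mm10, so the mm9 search began elsewhere, its count and ranks are not matched to those on mm10, and its 10 mm9 peaks all lay outside the GENCODE protein-coding transcripts.

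ST3GAL5 makes the ganglioside GM3, the first step of most gangliosides. St3gal5 (chromosome 6, 72097552 to 72154571, mm10) had 6 peaks and none within 1 kb of its TSS. The strongest (rank 6436, signal 60.4) lay 15978 bp downstream of the TSS, and ranked 13028 in replicate 1 and 5848 in replicate 2. Of the genes with a peak, St3gal5 had the weakest strongest peak in the optimal set.

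ST8SIA4 is a polysialyltransferase, best known for modifying the neural cell adhesion molecule and, in leukocytes, the chemokine receptor CCR7. St8sia4 (chromosome 1, 95587682 to 95667717, minus strand, mm10) had 10 peaks, all inside the gene. The strongest, 43218 bp downstream of the TSS (95624423 to 95624591), ranked 529 (signal 206), with ranks of 408 in replicate 1 (signal 88.9) and 675 in replicate 2 (signal 119). The second, 77380 bp downstream (rank 1879), lay in a UTR of the mm9 annotation, where a peak 77263 bp from the TSS ranked 2349. Another mm9 peak of St8sia4 (rank 5818) lay in a coding exon.

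**Figure D3:**
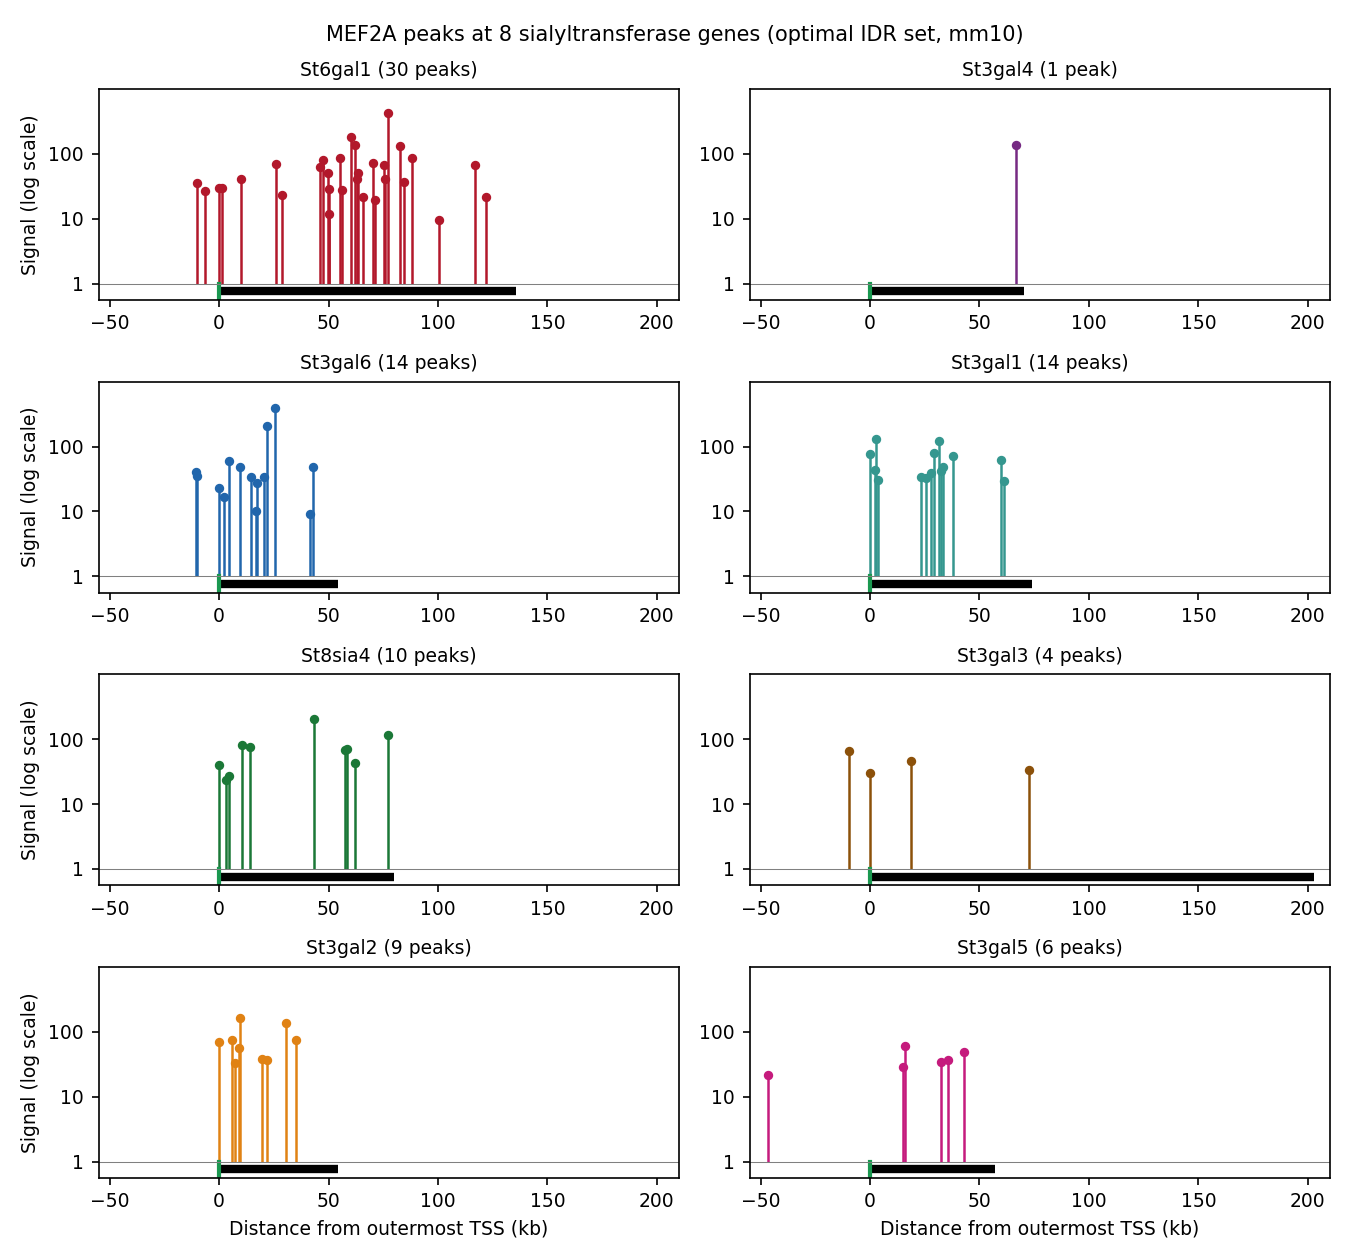
Signal of each optimal peak (vertical axis, log scale) by distance from the outermost TSS (horizontal axis, kb, positive downstream) at the 8 genes with a peak, with the gene as a black bar and the outermost TSS in green. The strongest peaks of St6gal1 (signal 428), St3gal6 (386), St8sia4 (206) and St3gal4 (137) lie inside the genes and away from the TSS.

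By the strongest peak, the order of the genes was St6gal1 (rank 10), St3gal6 (28), St8sia4 (529), St3gal2 (948), St3gal4 (1419), St3gal1 (1554), St3gal3 (5686) and St3gal5 (6436). The best ranks in the replicates did not overlap between St6gal1 (8 and 18), St3gal6 (36 and 32), St8sia4 (408 and 675) and the next genes. With 2 ranks per gene this is a description and not a test of order. St6gal1 was chosen by this rank, and the optimal set was made from these lists. The 2 best ranks of a gene can also come from different peaks, as at St3gal1 and St3gal5. St3gal2 (1403 and 815), St3gal4 (1538 and 1438) and St3gal1 (1305 and 1304) changed order between the lists: St3gal1 came before St3gal2 in replicate 1 and after it in replicate 2, and St3gal4 came last of the 3 in both replicates but before St3gal1 in the optimal set. St3gal3 (6337 and 6377) and St3gal5 (11650 and 5848) also overlapped, and the mm9 list placed St3gal5 (rank 4646) before St3gal3 (rank 5553). The other 6 genes with a peak kept this order on mm9, but for St3gal1 the order compares different peaks. Its strongest mm9 peak lay 31179 bp upstream of the short mm9 gene model, and its strongest mm10 peak 2843 bp downstream of the RefSeq TSS.

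All 88 peaks of the family overlapped an interval in both replicate lists by 1 bp or more, as did 97.6% of the optimal set. The optimal set was made from these lists, so this is no independent check. When only the 31497 strongest intervals of each replicate counted, 63 of the 88 peaks were found in both (71.6%), against 64.6% of the optimal set. This share depends on signal rank, by which St6gal1 was chosen. It therefore describes the chosen genes and is given without an interval. Across the 88 peaks, which include overlapping neighbours that share a replicate interval, Spearman's rho between the ranks in the replicates was 0.689. The ranks differed by a median of 1.73-fold and at most 10.8-fold. Replicate 1 gave the better rank for 45 peaks and replicate 2 for 43.

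**Figure D4:**
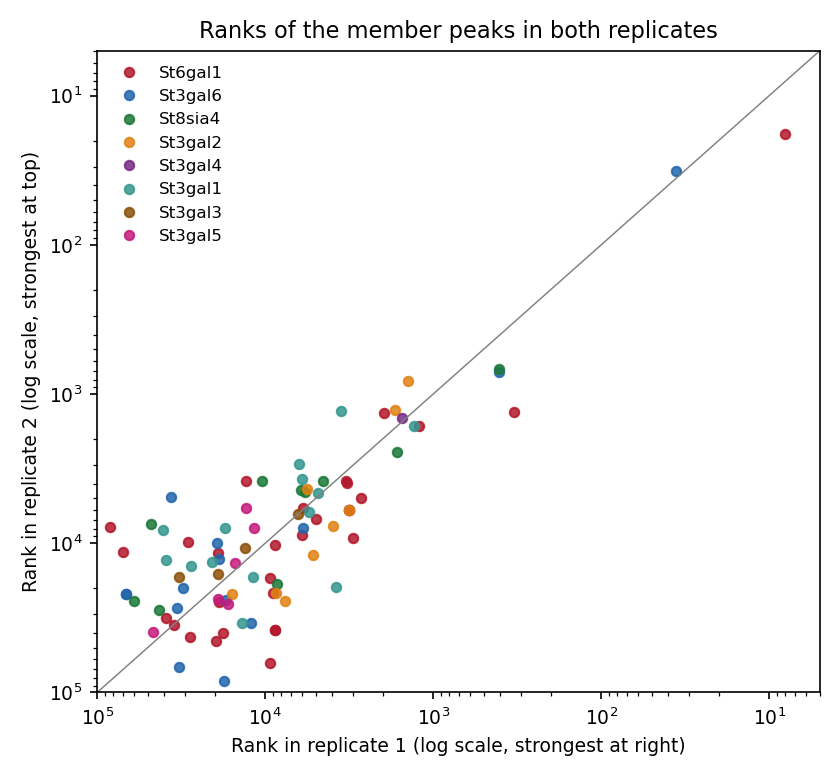
Rank of each family peak in replicate 1 (horizontal axis) and replicate 2 (vertical axis), both on log scales with the strongest at the upper right, coloured by gene; the line marks equal ranks. The strongest peaks of St6gal1 (8 and 18) and St3gal6 (36 and 32) stand apart at the upper right, and the spread widens among weak peaks.

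The family's peaks lay mostly away from promoters. Of the 88, 8 had a summit within 1 kb of a RefSeq TSS (9.09%, 95% Wilson interval 4.68 to 16.9), against 24.8% of the optimal set. A further 57 lay over 10 kb from every TSS (64.8%, 54.4 to 73.9), against 54.9%. Per gene, 6 of the 9 had a peak within 1 kb of the outermost TSS (St6gal1, St3gal1, St3gal2, St3gal3, St3gal6 and St8sia4), against 28.4% of all protein-coding genes. The stronger 50% of the optimal set held 58 of the 88 peaks (65.9%), and the strongest 10% held 13 (14.8%). St6gal1, chosen by the signal rank of its strongest peak, gave 30 of the 88 peaks and 19 of the 58. The shares by signal rank are therefore descriptions of the chosen genes, given without intervals. Neighbouring peaks are not independent, and the intervals on distance from a TSS cover counting error only. The family's peaks were gathered from whole gene bodies and 50 kb around each outermost TSS, whereas the background is every optimal peak. The shares by distance were thus not matched for gene length or for how densely genes lie. Few family peaks lay near the edge of the search region. Closest inside it were the peak of rank 1879 at St8sia4 and one 46569 bp upstream of St3gal5 (rank 27142), and closest outside were one 59698 bp upstream of St3gal2 (rank 11434) and one 67521 bp downstream of the St3gal5 TSS (rank 13069).

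The MEF2 element was found at a share of the family's peaks near that of all mm9 peaks, and it was missing from the strongest peaks of St6gal1 and St3gal6. The consensus, matched exactly on either strand within 50 bp of the summit, was found at 4 of the 62 mm9 peaks (6.45%, 2.54 to 15.4), against 7.13% of all mm9 peaks. Other forms and windows gave family shares below those of all mm9 peaks too: 1.61% against 3.64% with the strict form, 8.06% against 11.2% with the core, 6.45% against 8.89% within 100 bp and 8.06% against 10.3% in the whole interval. These rest on 1 to 5 family peaks and were not tested. The match was CTAAAAATAA in the second strongest St6gal1 peak (rank 789), centred 29.5 bp from the summit, and TTAAAAATAA in the second strongest St3gal6 peak (rank 381), 45.5 bp from the summit. The others were TTAAATATAG at St8sia4 (rank 5613, 19.5 bp from the summit) and CTAATTATAG at St3gal1 (rank 10200, 21.5 bp from the summit), which is the only strict form among them. Farther out, a further match in the St3gal6 peak of rank 381 (TTATTTTTAA) lay 106.5 bp from the summit, and one in the strongest St3gal5 peak (rank 4646, CTATAAATAA) 111.5 bp. The strongest peaks of St6gal1 and St3gal6 held neither the consensus nor its 8-base core anywhere in the interval; this says only that these letters are not there.

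Those strongest peaks held elements of other transcription factors that B cells use. Within 50 bp of the summit, the St6gal1 peak of rank 9 had the AP-1 element TGACTCA, centred 20 bp from the summit, and the E-box CAGGTG of E2A at 35.5 bp. The St3gal6 peak of rank 15 had the same pair, at 47 and 24.5 bp, and the PU.1 element GAGGAAGT at 42.5 bp. At St6gal1, the peak of rank 1475 had GGAAGTGAAA, an element that ETS and IRF factors bind jointly, 15.5 bp from the summit, and the peak of rank 4260 had TGACTCA with 2 overlapping NF-kB matches, GGGGACTTCC and GGGACTTCCC. These are matches of letters and not evidence of binding by those factors.

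Within 50 bp of the summit, TGACTCA was found at 14 of the family's 62 mm9 peaks (22.6%, 14.0 to 34.4), against 10.7% of all mm9 peaks. Of the 14, 6 were at St6gal1 and 3 at St3gal6. The shares that follow use the same window unless another is named. In wider windows TGACTCA was at 27.4%, against 14.9% within 100 bp and 17.3% in the whole interval. CAGGTG was at 9 (14.5%, 7.83 to 25.3, against 10.1%) and the RUNX element TGTGGTT at 6 (9.68%, 4.51 to 19.5, against 5.99%), of which 4 were at St6gal1. The difference for CAGGTG depended on the window, with 19.4% against 18.8% within 100 bp and 25.8% against 26.7% in the whole interval. For TGTGGTT the wider windows gave 11.3% against 9.58% and 16.1% against 12.2%. The ETS and IRF composite GGAANNGAAA and GAGGAAGT were each at 3 (4.84%, 1.66 to 13.3), against 4.39% and 3.24% of all mm9 peaks, and they overlapped at a St3gal2 peak (rank 4943). The NF-kB element was at 2 (3.23%, 0.889 to 11.0, against 8.37%), and its shares lay closer in wider windows. They were 9.68% against 13.8% within 100 bp and 12.9% against 16.8% in the whole interval. The octamer ATGCAAAT and the EBF1 element TCCCNNGGGA were at 0 of 62 within 50 bp of the summit, which allows a share of up to 4.84% by the limit of 3 counts and 5.83% by the Wilson interval, against 3.12% and 1.21% of all mm9 peaks. Farther out, the octamer was at 2 peaks within 100 bp (3.23%, against 5.12%) and at 3 in the whole interval (4.84%, against 6.11%). The EBF1 element was at 0 in both wider windows. None of these differences was tested, and 20 of the 62 peaks come from St6gal1 alone.

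Other genes of sialic acid biology mostly had peaks, like the family. Of 48 such genes in 5 lists, 44 had a peak (91.7%), against 68.5% of all protein-coding genes, and the median was 4 peaks, against 2 over all genes. The highest count was 12 peaks, against 30 at St6gal1. At 32 of the 44 genes the strongest peak also lay within reach of another protein-coding gene, so it cannot be given to the listed gene alone. Among Siglecs, the receptors that read sialic acid, 8 of 9 had a peak. The strongest was a peak of rank 441 (signal 220) that lay 7437 bp upstream of Cd22, the receptor for the product of ST6GAL1. This peak was also within reach of 4 other genes, Mag among them. Cd22 had 8 peaks, Cd33 6 (strongest rank 5037), Siglece 1 (rank 6565), and Siglec15 none. For synthesis and transport of the donor and turnover of free sialic acid the count was 6 of 7. Cmah, whose enzyme turns the sialic acid Neu5Ac into Neu5Gc, the form that mouse CD22 prefers, had 10 peaks (strongest rank 1329), followed by Npl (rank 5048), Cmas (rank 7100) and Gne (rank 8364), while Nanp had none.

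Of the other sialyltransferases, 9 of 11 had a peak, with the share of 68.5% over all genes again as background for this list and the next ones. St6galnac5 was strongest (8 peaks, strongest rank 763), followed by St6galnac4 and St6galnac6, which share their strongest peak (rank 1517), and St8sia6 (rank 1983), while St8sia2 and St8sia5 had none. Sialidases, which remove sialic acid, and related enzymes had peaks at 6 of 6 genes, led by Neu4 (rank 282, signal 258), Neu3 (rank 1575), Ctsa (rank 4508) and Neu2 (rank 4662). None of these 4 peaks was within reach of the listed gene alone: the Neu4 peak, 33134 bp downstream of the TSS, was shared with 1 other gene, those of Neu3 and Neu2 with 2 and that of Ctsa with 8. Enzymes that build the N-glycan and galactose acceptors had peaks at 15 of 15 genes. Mgat5, which adds the branch extended with N-acetyllactosamine, held the strongest (rank 64, signal 347, 176358 bp downstream of its TSS), followed by B4galt5 (rank 621), B4galt6 (rank 776) and Mgat4a (rank 1140). The peak of B4galt5 was shared with 1 other gene and that of Mgat4a with 2, whereas those of Mgat5 and B4galt6 were not shared. Expression and open chromatin were not measured, so these counts were not set against active genes of other kinds.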

How the data were processed

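MEF2A ChIP-seq peak lists of 2 biological replicates of CH12.LX, numbered 1 and 2 in the labels, were used: 5 lists on mm10 and 1 on mm9. Per the deposited texts, the authors called relaxed mm10 lists with a control file, per replicate and on both pooled, and derived from them both IDR sets; the mm9 list came from the alignments of both replicates. Which caller and aligner were used is not given in the sources used here. As deposited, signal values served to rank peaks within a list; the score column deposited by the authors, which reaches below 0, broke ties only. Each relaxed list holds 300000 intervals, which is no measure of depth; read depth is unknown, and Wilson intervals cover counting error over peaks only. That control library was not analysed here.

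Coordinates are 1-based. Genes on mm10 came from RefSeq (GRCm38.p6), with strand from the RefSeq promoter table for 17492 of 21900 protein-coding genes and from GENCODE vM1 by symbol for 4045; 363 had none and were left out. On mm9 (NCBIM37), the TSSs of all GENCODE vM1 protein-coding transcripts were used, and sequence was read there only. No coordinates were converted. Motifs (8 besides 3 forms of the MEF2 element) were searched as exact matches on both strands. Versions were Python 3.11.15, scipy 1.17.1 for intervals, pandas 2.3.3 and numpy 2.4.6 for tables, with matplotlib 3.10.9 for plots. The assignment and the motif search were tested on simulated data. Members and gene lists were chosen with earlier results of these data known. Named are the 9 members, up to 4 genes per other list by strongest peak with those lacking a peak where 4 or fewer did, and 3 genes most like St6gal1. No test was made: 1 group of 2 samples allows none across replicates.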

Additional observations from a re-analysis of the deposited data

How the results depend on the processing

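The number of family genes with a peak stayed at 7 to 9 in every setting tried: 7 with the gene body not counted, which lost St3gal4, and 9 in the conservative set and in either replicate alone, which added St6gal2. The number of peaks at St6gal1 was 19 in the stronger 50% of the optimal set and 10 with the gene body not counted, and lay between 20 and 34 elsewhere (20 on mm9). Leaving out a replicate gave 26 to 33 peaks at St6gal1, ranks from 8 to 18 for its strongest peak, and a background share of 68.5 to 69.4% of genes; the rank of 18 came without replicate 1, and the cause of its difference from 8 was not tested. The background share ranged from 50.1% with a 10 kb search region to 77.0% with 100 kb. The share of family peaks found in both replicates was 88.6% (all optimal peaks 86.9%) when 50% of each interval had to overlap, 90.9% (89.3%) when the replicate interval had to hold the summit and 71.6% (64.6%) with only the strongest intervals of each replicate. The share with a MEF2 element was 1.61% (all mm9 peaks 3.64%) with the strict form and 6.45 to 8.06% (8.89 to 11.2%) with the core, a wider window or the whole interval. Using all RefSeq starts on mm10, an alternative chosen after seeing the data, left 30 peaks at St6gal1. The strongest St6gal1 peak ranked 10th in the conservative set and 9th on mm9. Unknown read depth limits what weak peaks can show. No paired analysis was possible because there was 1 group and no comparison between groups.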

Other observations

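The conservative IDR set was not a subset of the optimal one. Of its 28217 peaks, 4126 (14.6%) overlapped no optimal peak, and 7362 of the 31497 optimal peaks overlapped no conservative one. At the sialyltransferase genes, 11 of 90 conservative peaks (12.2%) were outside the optimal set, and 13 of 88 optimal peaks were outside the conservative one. St3gal6 had 4 in each direction. The conservative peaks outside the optimal set at these genes included those of St6gal2 and a St6gal1 peak 8136 bp downstream of the outermost TSS (signal 32.1), which ranked 27804 in replicate 1 and 18942 in replicate 2.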
